A study of Mus musculus with 9 samples.

Results

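The nuclear-encoded subunits of the mitochondrial respiratory chain were followed at the transcript level in the murine colorectal cancer line MC38 and in liver metastatic derivatives of it. Members were chosen by gene symbol: Ndufa, Ndufb, Ndufc, Ndufs and Ndufv genes for complex I, Sdha to Sdhd for complex II, Uqcr genes for complex III, Cox4 to Cox8 genes for complex IV and Atp5 genes for complex V, without Ndufa4l2. The rule matched 82 of the 16399 genes in the files, and 79 of them reached 1 TPM (an abundance per transcript length, scaled to the same total in every library) in at least 3 of 9 libraries. These 79 were tested among 11287 genes that passed the same filter: 38 of 40 in complex I, 4 of 4 in complex II, 8 of 8 in complex III, 12 of 13 in complex IV and 17 of 17 in complex V.

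MC38-P was the parental line, and all 3 lines carried a GFP and luciferase reporter. MC38-LM3a and MC38-LM3b were third-generation lines obtained from it in 3 rounds of selection. In each round cells were injected into the spleen of C57BL/6 mice with an intact immune system, and cells from excised liver lesions were grown in culture. Poly(A) RNA of cultured, otherwise untreated cells was sequenced in 3 replicates per line, which the labels call biological, and p-values measure the spread among these samples. The derivatives are described as obtained independently, but only 1 line is named for each earlier round, so the early selection may have been shared and a change found in both derivatives need not be 2 separate events. Each derivative is 1 line, and its replicates do not stand for separate selections. TPM values keep no read depth, so the depth behind each value is unknown.

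Oxidative phosphorylation passes electrons from NADH (complex I) and succinate (complex II) through complex III and cytochrome c to oxygen at complex IV, and the proton gradient built on the way drives ATP synthesis at complex V. Most subunits are encoded in the nucleus, made in the cytosol and imported, whereas a few membrane-embedded core subunits of complexes I, III, IV and V are encoded by mitochondrial DNA. Subunits without partners are often unstable, so a transcript level is not a measure of assembled complex. In colon epithelium, oxidative phosphorylation is a main source of ATP, and in cultured tumor cells with ample glucose it runs beside glycolysis.

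The libraries differed in ways that touch these genes. The member transcripts were short (a median of 714 bases over 77 members with an annotated length, against 2778 for the tested genes). MC38-LM3a replicate 3 was the lowest of its group in 69 of the 79 members (87.3%, against 15.2% of all tested genes), and MC38-P replicate 3 was the highest of its group in 61 (77.2%, against 12.9%). Results are therefore also given without these libraries and after a correction for GC content and length. Both libraries were picked from the members' own values. Leaving them out raises most members in MC38-LM3a against MC38-P by construction. Leaving out MC38-LM3a replicate 3 likewise lowers most members in MC38-LM3b against MC38-LM3a. Hepatocyte markers summed to at most 0.89 TPM in any library. Of the epithelial markers, Krt8 and Krt18 lay between 707 and 1206 TPM while Cdh1 stayed at or under 0.08 TPM and Vil1 at or under 0.13 TPM, so defining transcripts of the labelled epithelial cell type were at or near 0. The epithelial marker sum lay between 2004 and 2318 TPM in MC38-P, between 1592 and 1812 in MC38-LM3a and between 1585 and 1630 in MC38-LM3b, and the stellate and fibroblast sum, mostly Col3a1, was 135 to 172 TPM in MC38-P and 54.0 to 72.6 in the derivatives. Single markers went against these sums, with Krt19 at 105 to 122 TPM in MC38-P but 136 to 157 in MC38-LM3a, and Pdgfrb at 1.15 to 1.74 TPM in MC38-P but at 3.48 or more in MC38-LM3b. The macrophage sum, nearly all Cd68, was 27.8 to 29.7 TPM in MC38-P, 34.3 to 41.0 for MC38-LM3a and 40.0 to 45.6 for MC38-LM3b. The part of these shifts in the results was not tested. As values were measured in bulk, fewer cells and less RNA per cell cannot be told apart.

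Besides Sdhc, the members called in both derivatives against MC38-P were Cox6c, Atp5g2, Ndufa6 and Ndufb9, all on chromosome 15 and all lower, and Ndufv3, which was higher. The promoters that could be matched are shown so that the chromosome 15 members can be set beside Ndufv3 and beside the paralogs Atp5g1 and Atp5g3, which encode the same mature protein as Atp5g2 on other chromosomes. Each is the 250 bases before the RefSeq start in GRCm38.p6, on the gene's own strand: Atp5g2 at chr15:102671048-102671297 (minus), Ndufa6 at chr15:82354292-82354541 (minus), Ndufv3 at chr17:31519865-31520114 (plus), Atp5g1 at chr11:96075632-96075881 (minus) and Atp5g3 at chr2:73911327-73911576 (minus). Capitals mark a match to the palindrome recognised by NRF1, a transcription factor of respiratory genes.
Atp5g2: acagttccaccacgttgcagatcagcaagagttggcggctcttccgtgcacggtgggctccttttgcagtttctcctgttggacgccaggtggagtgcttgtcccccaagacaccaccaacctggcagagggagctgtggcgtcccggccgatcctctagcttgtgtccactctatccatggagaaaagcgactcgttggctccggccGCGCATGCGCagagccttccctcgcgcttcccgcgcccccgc
Ndufa6: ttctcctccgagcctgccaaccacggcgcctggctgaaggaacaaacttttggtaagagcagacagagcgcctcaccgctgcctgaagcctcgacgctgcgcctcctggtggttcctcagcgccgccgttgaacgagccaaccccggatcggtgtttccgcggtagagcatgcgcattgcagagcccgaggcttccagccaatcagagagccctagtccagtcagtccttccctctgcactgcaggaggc
Ndufv3: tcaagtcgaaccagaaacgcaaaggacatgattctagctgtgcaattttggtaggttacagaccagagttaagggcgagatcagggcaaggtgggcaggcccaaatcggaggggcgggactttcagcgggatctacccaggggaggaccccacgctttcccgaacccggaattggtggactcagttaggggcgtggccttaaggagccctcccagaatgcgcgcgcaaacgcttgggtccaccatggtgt
Atp5g1: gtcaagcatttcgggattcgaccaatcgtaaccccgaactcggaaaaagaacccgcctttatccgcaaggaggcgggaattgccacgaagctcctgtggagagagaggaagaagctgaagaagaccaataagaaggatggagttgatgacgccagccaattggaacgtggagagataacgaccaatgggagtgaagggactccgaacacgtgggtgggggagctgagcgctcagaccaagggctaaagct
Atp5g3: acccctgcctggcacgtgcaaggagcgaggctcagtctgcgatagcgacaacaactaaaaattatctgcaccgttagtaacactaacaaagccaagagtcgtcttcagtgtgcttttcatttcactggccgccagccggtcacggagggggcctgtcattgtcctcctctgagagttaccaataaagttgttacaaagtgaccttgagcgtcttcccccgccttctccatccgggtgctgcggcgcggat

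In the RefSeq windows of 300 bases (250 before and 50 after the start, both strands), 66 of the tested members could be matched. The NRF1 palindrome GCGCATGCGC stood in 5 of them (7.58%, against 2.46% of 9091 tested genes with a window): Atp5g2, Atp5k, Cox6a1, Ndufa11 and Uqcrc1. In Atp5g2 it began 42 bases before the start. With any letter at the sixth base (GCGCANGCGC, which includes the palindrome), 17 members matched (25.8%, against 12.2%), among them Ndufa6 and Atp5g3, whose matches are not within the printed 250 bases. The YY1 motif AAGATGGC stood in 10 members (15.2%, against 5.55%) and the core of ETS sites, CCGGAAG, in 17 (25.8%, against 21.6%). These are matches of letters. No entry was matched for Cox6c or Ndufb9.

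The subunits were abundant. Of the 79 members, 72 had a mean of at least 100 TPM over the 9 libraries (91.1%, against 14.9% of all tested genes). Together they took 2.95% ± 0.168 of all TPM in MC38-P, with 3.11% ± 0.278 in MC38-LM3a and with 2.79% ± 0.00256 in MC38-LM3b (SD, n = 3). The summed level was 28434, 28547 and 31404 TPM in the replicates of MC38-P, 32817, 32570 and 27876 in MC38-LM3a and 27865, 27883 and 27915 in MC38-LM3b. MC38-LM3a replicates 1 and 2 lay above every other library, MC38-LM3a replicate 3 lay among the MC38-LM3b libraries, and all of these 4 were below MC38-P.

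From the lowest to the highest member, levels spanned most within complex IV and least within complex II. The complex IV span rests on Cox7a1, as the other 11 tested members of that complex had means of at least 10 TPM. Complex V had the largest sum, at 11521 ± 610 TPM in MC38-P, at 11865 ± 1251 in MC38-LM3a and at 10711 ± 82.4 in MC38-LM3b. It ranged from Atp5d (delta subunit of the central stalk, mean 160 TPM) to Atp5b (catalytic beta subunit, 1490 TPM), a 9.33-fold span. The 4 complex II transcripts lay within 1.29-fold of each other, from Sdhc at 181 TPM to Sdhd at 233 TPM. Complex I spanned 52.9-fold from Ndufa11 (16.9 TPM) to Ndufa4 (892 TPM), complex III 12.1-fold from Uqcrq (76.4 TPM) to Uqcr10 (922 TPM), and complex IV 153-fold from Cox7a1 (6.78 TPM) to Cox7c (1041 TPM). Ndufa4 is counted here in complex I by its symbol, although its protein is now placed in complex IV.

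**Figure D1:**
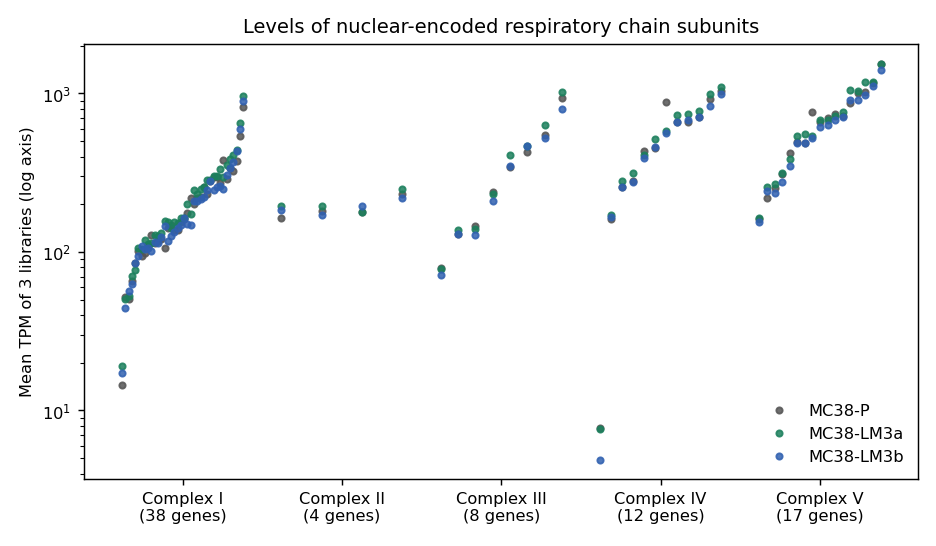
Mean TPM of 3 libraries for each tested subunit (log axis), ordered by level within complexes I to V, with MC38-P in grey, MC38-LM3a in green and MC38-LM3b in blue. The 3 lines overlie for most genes, Cox7a1 sits alone at the bottom of complex IV, and the grey points standing clear of the others in complexes IV and V are Cox6c and Atp5g2.

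Which subunits differed between each derivative and MC38-P was tested with limma on log2(TPM + 1), with Benjamini-Hochberg adjustment over all tested genes. Fold changes on this scale understate changes of low genes, and most members lie far above that range. In MC38-LM3a, 11 members were higher and 4 lower at an adjusted p under 0.05, against a background of 14.1% of all tested genes higher and 13.8% lower. The share of members higher was near the background and the share lower was under it. In MC38-LM3b, 3 members were higher (background 35.6%) and 11 lower (background 11.2%). No member also passed an absolute log2 fold change of 1 in either comparison (background 2.89% for MC38-LM3a and 3.93% for MC38-LM3b). The absolute log2 fold change stayed under 0.3 for 71 members in MC38-LM3a and for 72 in MC38-LM3b. Both comparisons share the MC38-P libraries.

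The medians of the members and of all genes were not the same. In MC38-LM3a the median log2 fold change was 0.10 over the members and 0.00 over all tested genes, with 62 of 79 members above 0. In MC38-LM3b it was -0.04 over the members and 0.21 over all tested genes, with 52 of 79 members below 0. Without MC38-P replicate 3 these MC38-LM3b medians were 0.005 and 0.14, with 41 members above 0 and 38 below. After each library was centred on its own median, which takes out the shift over all genes, the members had a median of 0.10 in MC38-LM3a and one of -0.27 in MC38-LM3b. With a correction for GC content and length, made for 77 members, it was 0.03 for MC38-LM3a, with 44 members above 0 and 33 below, and -0.09 for MC38-LM3b. Centring gave 1 higher (Ndufv3) and 3 lower members in MC38-LM3a (background 19.8% and 20.1%) and 0 higher and 19 lower in MC38-LM3b (background 22.9% and 26.4%). Of the 3 lower in MC38-LM3a, 2 lay on chromosome 15 and 1 off it, where 0 were lower without centring. The other members higher in MC38-LM3a thus did not pass with centring.

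Most counts of called members rested on single libraries, while the lower count in MC38-LM3a stayed at 4 or 5 with any 1 library left out. Without MC38-LM3a replicate 3, 32 members were higher and 5 lower in MC38-LM3a (background 14.2% and 23.2%), and 9 were higher and 20 lower in MC38-LM3b (background 45.1% and 13.8%). Leaving out any other library gave between 1 and 16 higher members in MC38-LM3a (1 without MC38-P replicate 2, 2 without MC38-LM3a replicate 1, 3 without MC38-P replicate 1, 4 without MC38-LM3a replicate 2, 6 without any 1 MC38-LM3b library and 16 without MC38-P replicate 3) and 4 lower, against 10.02% to 13.3% of all tested genes higher and 8.57% to 16.9% lower in these 8 fits. In MC38-LM3b it gave 1 to 3 higher, with 1 when MC38-LM3a replicate 1, MC38-LM3b replicate 1 or MC38-P replicate 2 was left out, and 4 to 10 lower, with 4 or 5 when MC38-P replicate 3 or any 1 MC38-LM3b library was left out and 6 without MC38-P replicate 2, against 24.5% to 38.2% of all tested genes higher and 8.07% to 10.9% lower. With the GC content and length correction, 15 were higher and 9 lower in MC38-LM3a (background 26.5% and 24.9%), and 4 were higher and 23 lower in MC38-LM3b (background 29.4% and 28.6%). Without MC38-P replicate 3 and MC38-LM3a replicate 3 together, 53 were higher and 5 lower in MC38-LM3a (background 18.4% and 45.2%), and 19 were higher and 15 lower in MC38-LM3b (background 46.3% and 19%). As these libraries were picked from the members' own values, the direction of the change in MC38-LM3a was set by the choice. Across 21 fits, Cox6c, Atp5g2 and Ndufv3 were called in MC38-LM3a every time, and Cox6c, Atp5g2, Ndufa6 and Ndufb9 in MC38-LM3b every time.

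**Figure D2:**
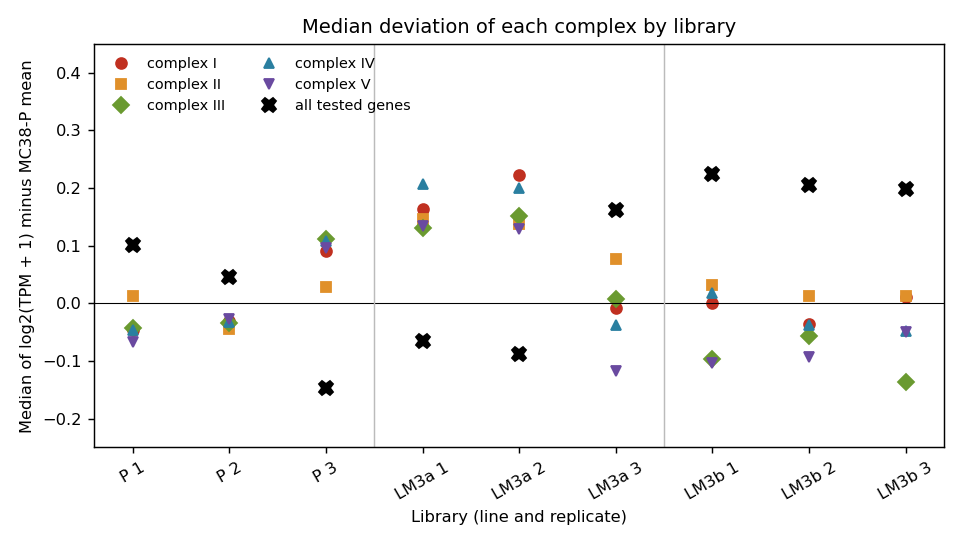
Median over the genes of each complex of the log2(TPM + 1) value minus the MC38-P mean, for each of the 9 libraries, with all tested genes as black crosses. MC38-LM3a replicates 1 and 2 sit at 0.13 to 0.22 in all 5 complexes and replicate 3 between -0.12 and 0.08, while the all-gene median moves the other way, from -0.07 and -0.09 to 0.16.

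Complex I takes electrons from NADH. In MC38-LM3a 8 of its 38 tested members were higher and 2 lower (background 14.1% and 13.8%), with a median of 0.13, and in MC38-LM3b 2 were higher and 5 lower (background 35.6% and 11.2%), with a median of -0.02. Ndufv3, an accessory subunit at the NADH-binding tip, had the highest log2 fold change of the complex in both derivatives. It was measured at 105, 99.5 and 113 TPM in MC38-P, at 162, 161 and 146 in MC38-LM3a and at 145, 147 and 147 in MC38-LM3b, so no derivative library overlapped MC38-P. The log2 fold change was 0.55 ± 0.07 (SE, adjusted p = 2.10e-04) in MC38-LM3a and 0.46 ± 0.07 (adjusted p = 4.32e-04) in MC38-LM3b. With median centring the MC38-LM3b value was 0.24 with an adjusted p of 0.14.

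The core subunits Ndufs1 and Ndufv1 were not called with all libraries and no correction. Ndufs1, which holds iron-sulfur clusters, was at 89.7, 88.2 and 77.1 TPM in MC38-P, at 71.2, 71.0 and 87.9 in MC38-LM3a and at 87.0, 79.0 and 88.4 in MC38-LM3b and did not pass the test in either derivative (adjusted p = 0.292 and 0.989, limma). With the GC content and length correction it was lower in both (-0.18, adjusted p = 0.00864, and -0.23, adjusted p = 0.00217). Ndufv1, the FMN-binding subunit, had means of 109, 112 and 107 TPM and did not pass either (adjusted p = 0.589 and 0.709). The standard error of these differences, 0.10 and 0.06 on the log2 scale, sets the size of change that could be seen.

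The other members of complex I higher in MC38-LM3a were Ndufa11, Ndufc1, Ndufs5, Ndufa8, Ndufa13, Ndufv2 and Ndufa4, named here after their values were seen, with log2 fold changes of 0.22 to 0.38 and adjusted p of 0.0131 to 0.0495. Ndufv2, a core iron-sulfur subunit, was at 99.0 ± 6.22 TPM in MC38-P and 119 ± 11.1 in MC38-LM3a, and Ndufa4 was at 827 ± 75.6 and 958 ± 50.3. With the GC content and length correction both calls were lost, at 0.14 (adjusted p = 0.101) for Ndufv2 and 0.05 (adjusted p = 0.598) for Ndufa4. In MC38-LM3b none of these 7 passed the test with all libraries and no correction, and Ndufa11 passed with the correction (0.33, adjusted p = 6.26e-04). Ndufb3, also named after its values were seen, was higher in MC38-LM3b (0.21, adjusted p = 0.0454, limma) but at -0.02 with median centring and 0.06 with the correction (adjusted p = 0.457). Ndufa12 (-0.34), Ndufb10 (-0.28) and Ndufa10 (-0.23), named in the same way, were lower there. Without MC38-P replicate 3 these calls were lost, as 0 of 35 complex I members off chromosome 15 were lower in MC38-LM3b (background 10.7%). The lowest value among the 35 was then -0.28.

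Ndufa6, a matrix-arm accessory subunit, was lower in both derivatives. It stood at 207, 210 and 239 TPM in MC38-P, at 180, 176 and 162 in MC38-LM3a and at 144, 161 and 139 in MC38-LM3b. The groups did not overlap with MC38-P, and each MC38-LM3b library was below each MC38-LM3a library. Its log2 fold change was -0.33 ± 0.08 (adjusted p = 0.0104) and -0.56 ± 0.08 (adjusted p = 3.74e-04).

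Ndufb9, an accessory subunit of the membrane arm, gave the lowest log2 fold change of the complex in both derivatives. It was at 378, 349 and 410 TPM in MC38-P, 307, 328 and 260 in MC38-LM3a and 249, 259 and 246 in MC38-LM3b, again without overlap with MC38-P. Its log2 fold change was -0.35 ± 0.09 (adjusted p = 0.0134) and -0.59 ± 0.09 (adjusted p = 4.94e-04). Median centring took the MC38-LM3a call of Ndufa6 (adjusted p = 0.0849) and of Ndufb9 (adjusted p = 0.104), with log2 fold changes of -0.34 and -0.35.

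Complex II oxidises succinate and is shared with the tricarboxylic acid cycle. The catalytic flavoprotein Sdha had means of 178 ± 5.33 TPM in MC38-P, of 180 ± 9.73 in MC38-LM3a and of 195 ± 6.28 in MC38-LM3b, and the iron-sulfur subunit Sdhb 182 ± 16.2, 194 ± 17.1 and 171 ± 7.99. Neither passed the test in either derivative (adjusted p between 0.0876 and 0.895, limma), and the MC38-LM3b value of Sdha turned from 0.13 to -0.08 with the correction and -0.09 with median centring. The membrane anchor Sdhc was at 170, 156 and 165 TPM in MC38-P, at 197, 194 and 191 in MC38-LM3a and at 191, 176 and 186 in MC38-LM3b, with no overlap against MC38-P. Its log2 fold change was 0.24 (adjusted p = 0.0101, and 0.0718 with median centring) in MC38-LM3a and 0.17 (adjusted p = 0.0365) in MC38-LM3b, and the latter turned to -0.05 with the length correction and with median centring.

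The other anchor, Sdhd, lay on opposite sides of MC38-P in the derivatives. It was at 233, 224 and 239 TPM in MC38-P, at 252, 251 and 241 in MC38-LM3a and at 223, 220 and 217 in MC38-LM3b. All MC38-LM3a libraries were above and all MC38-LM3b libraries below MC38-P, but neither comparison passed the test (0.10, adjusted p = 0.202, and -0.08, adjusted p = 0.246, limma). With the GC content and length correction the MC38-LM3a value was 0.03 and Sdhd was lower in MC38-LM3b (-0.18, adjusted p = 0.00470), as it was there with median centring (-0.30, adjusted p = 0.0383).

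Complex III passes electrons from ubiquinol to cytochrome c. Of its 8 tested members, 1 was higher in MC38-LM3a (background 14.1% higher and 13.8% lower), the hinge protein Uqcrh (0.22, adjusted p = 0.0357, and 0.236 with median centring, limma). In MC38-LM3b 1 was lower (background 35.6% higher and 11.2% lower), the core protein Uqcrc2 (-0.17, adjusted p = 0.0334, limma). Uqcrh was at 536, 516 and 583 TPM in MC38-P, 676, 647 and 584 in MC38-LM3a and 536, 538 and 507 in MC38-LM3b. MC38-LM3a replicate 3 was less than 1 TPM above the highest MC38-P library, and MC38-LM3b overlapped with MC38-P. The Rieske iron-sulfur protein Uqcrfs1 had means of 130 ± 1.70, 137 ± 5.94 and 131 ± 8.19 TPM and the core protein Uqcrc1 237 ± 21.4, 234 ± 16.1 and 211 ± 5.81. Neither passed the test, with log2 fold changes between -0.17 and 0.08, but Uqcrc1 was lower in MC38-LM3b with the correction (-0.25, adjusted p = 0.0309) and with median centring (-0.39, adjusted p = 0.0446). Among the small subunits, Uqcr11 had the highest value in MC38-LM3a (0.25, adjusted p = 0.0687), Uqcrb the highest in MC38-LM3b (0.12, adjusted p = 0.0827) and Uqcr10 the lowest in MC38-LM3b (-0.22, adjusted p = 0.144). With the correction MC38-LM3a calls were gained by Uqcr11 (0.26, adjusted p = 0.00521) and by Uqcrc2 (-0.14, adjusted p = 0.0444). With the correction Uqcrb turned to -0.08 for MC38-LM3a and was at -0.09 for MC38-LM3b, where median centring gave -0.11.

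Complex IV reduces oxygen, and its nuclear-encoded subunits surround a core encoded by mitochondrial DNA. Cox6c, a small membrane subunit, was the member with the lowest log2 fold change of all complexes in MC38-LM3a. It stood at 944, 865 and 836 TPM in MC38-P, at 566, 528 and 642 in MC38-LM3a and at 559, 549 and 580 in MC38-LM3b, so each derivative library lay below each MC38-P library. The log2 fold change was -0.61 ± 0.08 (adjusted p = 2.24e-04) and -0.65 ± 0.08 (adjusted p = 1.11e-04), between -0.83 and -0.55 over all fits in MC38-LM3a and between -0.87 and -0.60 in MC38-LM3b.

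With all libraries and no correction, no other of the 12 tested members of complex IV was called in MC38-LM3a (background 14.1% higher and 13.8% lower). Cox5a, which binds at the matrix side and is named after its values were seen, was called lower in MC38-LM3b (-0.15, adjusted p = 0.0353, limma, background 11.2%). That call was lost without MC38-P replicate 3. With no correction, 6 members were higher in MC38-LM3a without its replicate 3 (background 14.2%), and 9 without MC38-P replicate 3 as well (background 18.4%). The choice of these libraries from the members' own values favours such a rise. With the correction Cox5a was lower in MC38-LM3a too (-0.17, adjusted p = 0.00409), and Cox6a1 (0.15, adjusted p = 0.0130) and Cox8a (0.14, adjusted p = 0.0494) were higher there (background 26.5% higher and 24.9% lower). Cox4i1, the common form of subunit 4, had means of 919 ± 86.7 TPM in MC38-P, of 998 ± 116 in MC38-LM3a and of 834 ± 16.2 in MC38-LM3b. Cox5b gave the highest value in MC38-LM3a (0.19, adjusted p = 0.118) and Cox6b1 the highest in MC38-LM3b (0.04, adjusted p = 0.678). Cox6a1, Cox7a2, Cox8a and Cox7a2l, the last a factor of supercomplexes, lay between 0.12 and 0.17 in MC38-LM3a and between -0.02 and 0.00 in MC38-LM3b. None of them passed the test with all libraries and no correction.

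The isoforms of heart and skeletal muscle were low or near 0. Cox6a2 was listed at 0 in 8 libraries and at 0.30 TPM in MC38-P replicate 2. Cox7a1, the lowest member that passed the filter (in 8 of 9 libraries), was at 1.82, 11.4 and 10.2 TPM in MC38-P, 7.17, 13.9 and 1.95 in MC38-LM3a and 4.77, 9.92 and 0 in MC38-LM3b. Replicates of a line spanned more than the difference between lines, with a standard error of 0.87 on the log2 scale (adjusted p = 0.98 and 0.42, limma). Its MC38-LM3b value, at -0.88 the lowest of the members, ranged from -1.60 to 0.12 when 1 library was left out, with 0.12 without MC38-LM3b replicate 3. Just outside the filter were Ndufb4b, with 1.81 and 1.72 TPM in 2 libraries and 0 in the rest, and Ndufs6b, with at most 1.35 TPM. Both are close copies of Ndufb4 and Ndufs6, so reads could be shared between them. Cox4i2, Cox6b2, Cox8b and Cox8c were not analysed here.

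Complex V makes ATP with a catalytic head turned by a ring of c subunits in the membrane. Of the head subunits, Atp5a1 (alpha) had a mean of 741 TPM in MC38-P, of 718 in MC38-LM3a and of 683 in MC38-LM3b, with log2 fold changes of -0.05 and -0.12 that did not pass the test (adjusted p = 0.529 and 0.0606, limma). In MC38-LM3b it was lower with the GC content and length correction (-0.30, adjusted p = 0.00123) and with median centring (-0.34, adjusted p = 0.00962). Atp5b (beta) was at 1548, 1511 and 1559 TPM in MC38-P, 1545, 1584 and 1459 in MC38-LM3a and 1376, 1431 and 1392 in MC38-LM3b. The MC38-LM3b libraries lay below all of MC38-P, with a log2 fold change of -0.14 ± 0.05 (adjusted p = 0.0424), and MC38-LM3a overlapped with MC38-P (-0.01, adjusted p = 0.910). Without MC38-P replicate 3 the Atp5b call was lost, as 0 of 16 complex V members off chromosome 15 were lower in MC38-LM3b (background 10.7%).

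In the rest of complex V, Atp5j (coupling factor 6 of the peripheral stalk) was higher in MC38-LM3a, at 0.24 (adjusted p = 0.0491, and 0.226 with median centring), and had the highest value in MC38-LM3b, 0.15 (adjusted p = 0.143, and 0.0445 with the GC content and length correction, limma). Atp5e, the epsilon subunit, had the highest value in MC38-LM3a, 0.27. MC38-LM3a replicate 3 at 836 TPM lay among the MC38-P libraries (803, 845 and 964) and below 1160 and 1178 in the other replicates. With all libraries and no correction, Atp5e did not pass the test (adjusted p = 0.124, limma), and with the correction it did (0.23, adjusted p = 0.0243). Without MC38-LM3a replicate 3 and with no correction, 7 of the 17 complex V members were higher in MC38-LM3a (background 14.2%).

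The c subunit is encoded by 3 genes, and Atp5g2 was the lowest of complex V in both derivatives. It was at 725, 773 and 781 TPM in MC38-P, at 581, 549 and 487 in MC38-LM3a and at 535, 556 and 473 in MC38-LM3b. No library of a derivative reached those of MC38-P, and the log2 fold change was -0.50 ± 0.08 (adjusted p = 0.00105) and -0.54 ± 0.08 (adjusted p = 4.27e-04). Atp5g1 and Atp5g3 are given as its paralogs. Atp5g3, the most abundant copy, had means of 1157 ± 58.1, 1189 ± 74.9 and 1121 ± 28.2 TPM and did not pass the test (adjusted p = 0.688 and 0.553). Atp5g1 had means of 420 ± 35.8, 387 ± 53.7 and 349 ± 4.32 TPM and was called lower in MC38-LM3b (-0.27, adjusted p = 0.0419, limma), a call lost without MC38-P replicate 3. Its MC38-LM3a value of -0.13 did not pass (adjusted p = 0.378). Atp5g2 supplied 32.5% ± 0.777 of the summed c subunit transcripts in MC38-P, but 25.5% ± 0.256 in MC38-LM3a and likewise 26.2% ± 1.34 in MC38-LM3b (SD, n = 3). The sum over the 3 genes stood at 2337 ± 118 TPM in MC38-P, at 2115 ± 174 in MC38-LM3a and at 1991 ± 68.6 in MC38-LM3b.

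**Figure D3:**
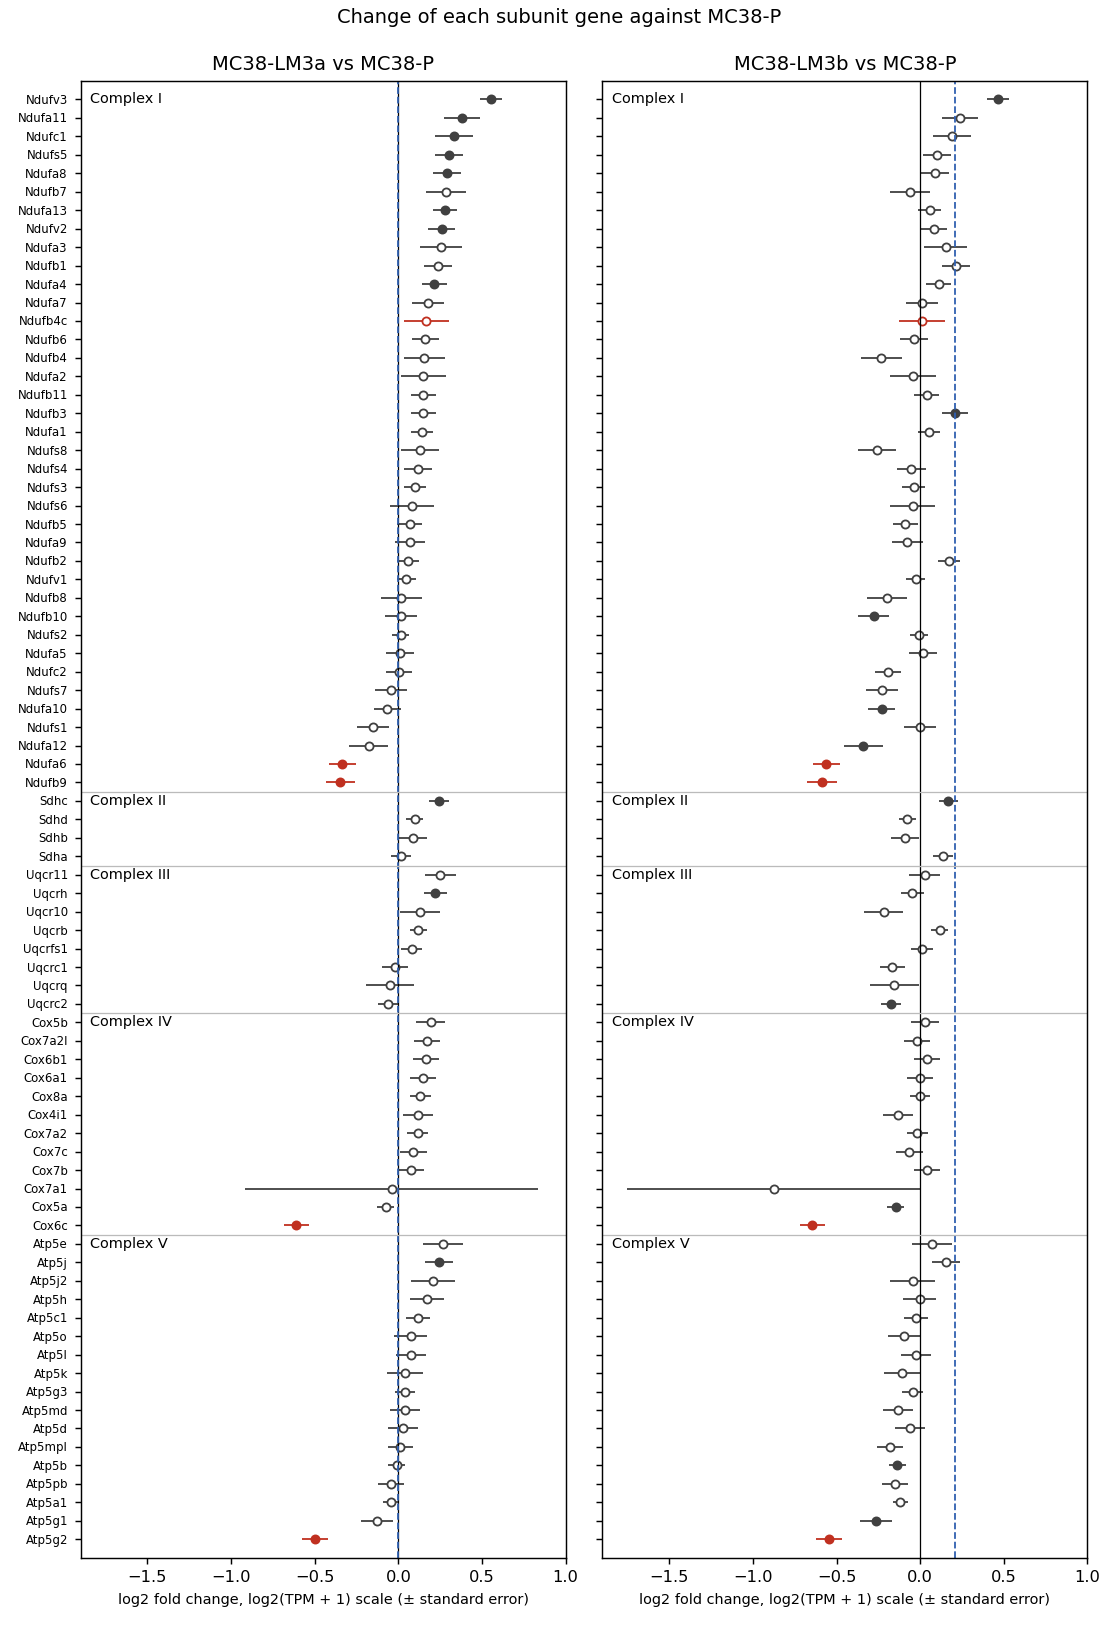
Log2 fold change against MC38-P on the log2(TPM + 1) scale with its standard error for all 79 tested subunits, ordered within each complex by the MC38-LM3a value, in MC38-LM3a (left) and MC38-LM3b (right). Filled points have an adjusted p under 0.05, red marks chromosome 15 and the dashed line is the median of all tested genes (0.00 and 0.21). The 4 filled red points lie at -0.65 to -0.33, Ndufv3 lies at 0.55 and 0.46, and most other points lie within 0.3 of 0.

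The 4 members called lower in both derivatives all lie on chromosome 15, a position the rule did not use. Of the 79 tested members, 5 map there by the GENCODE M21 annotation of GRCm38, and the fifth, Ndufb4c, did not pass the test (0.17, adjusted p = 0.407, and 0.01, adjusted p = 0.955, limma). Ndufb4c was at 103, 102 and 138 TPM in MC38-P, 134, 135 and 114 in MC38-LM3a and 119, 96.4 and 130 in MC38-LM3b. It is a close copy of Ndufb4 on chromosome 16, and reads could be shared between them. Lower in both derivatives were 4 of 79 members (background 9.07%), and higher in both were Ndufv3 and Sdhc (background 13.3%). Off chromosome 15, 11 of 74 members were higher and 0 lower in MC38-LM3a (background off that chromosome 14.6% and 11.5%), and 3 were higher and 7 lower in MC38-LM3b (background 36.8% and 9.62%), so the 11 and the 7 were near the background. Beside that count of 0 by limma, 17 of the 74 had an unadjusted p under 0.05 in either direction (background 36.7%), and the length correction called 5 of 73 lower (background 22.5%).

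Most genes of that chromosome were lower along with these members. The 464 tested genes on chromosome 15 had a median log2 fold change of -0.53 in MC38-LM3a and one of -0.31 in MC38-LM3b, against 0.01 and 0.23 for the 10823 genes elsewhere. Of the 464, 428 lay below 0 and 316 were called lower in MC38-LM3a, and 362 and 222 in MC38-LM3b. With the length correction the medians were -0.50 in both. Without the correction, Cox6c lay below the median of its chromosome in MC38-LM3a and the other 3 above it, and in MC38-LM3b all 4 lay below. With it, Atp5g2 lay just above that median in MC38-LM3b, at -0.49, and just below it in MC38-LM3a, at -0.51. The part of the chromosome-wide difference in the values of these members was not tested.

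**Figure D4:**
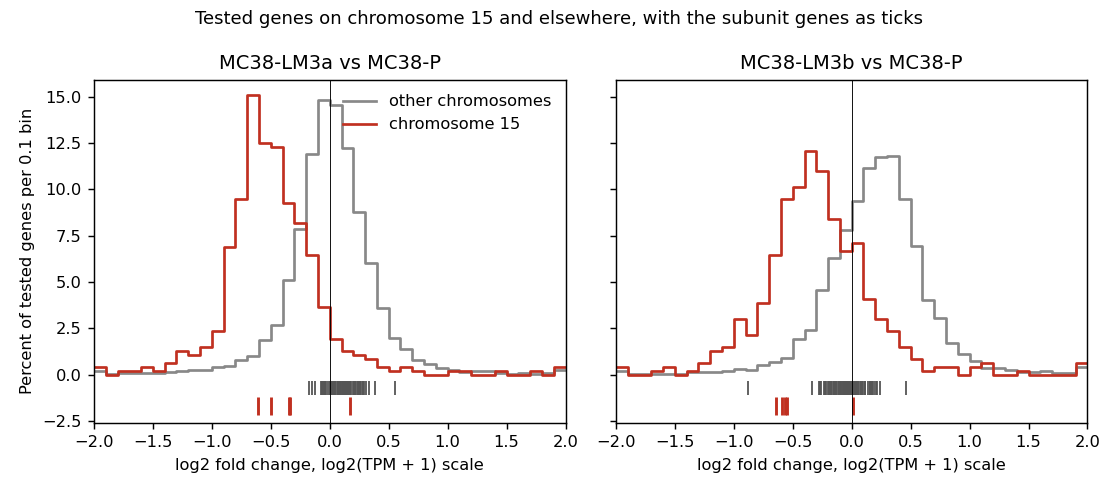
Distribution of log2 fold changes (percent of tested genes per bin of 0.1 on the log2(TPM + 1) scale, values beyond 2 in the outer bins) for chromosome 15 in red and the other chromosomes in grey, in MC38-LM3a (left) and MC38-LM3b (right), with tested subunit genes as ticks below. The red curves are centred at -0.53 and -0.31, 4 red ticks lie at -0.65 to -0.33 under them, and Ndufb4c lies at 0.17 and 0.01.

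Between the derivatives, most subunits had a lower value in MC38-LM3b, and none passed the test with all libraries. Of 79 members, 0 were higher and 0 lower in MC38-LM3b against MC38-LM3a by limma (background 0.0354% and 0.0177%, and 0.0266% past the fold limit as well), with 19 at an unadjusted p under 0.05, a smaller share than the 38.1% of all tested genes. The log2 difference was below 0 in 74 of 79 members, with a median of -0.15 against 0.21 over all tested genes. All 3 MC38-LM3b libraries lay below all 3 MC38-LM3a libraries in 20 members (background 3.6%) and above them in 1 (background 38.4%). With the length correction 0 and 0 of 77 were called (background 0.0541% and 0.108%), with 31 at an unadjusted p under 0.05, here a larger share than the 23.0% of all genes, and a median of -0.13 against 0.00.

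MC38-LM3a replicate 3 decided the calls between the derivatives. Without it, 50 of 79 members were lower in MC38-LM3b and 2 higher (background 4.24% and 52.2%), with a median of -0.23 against 0.29 over all genes. With the length correction and without that library, 37 of 77 were lower and 1 higher (background 11% and 9.39%), with a median of -0.19 against 0.00. In both fits MC38-LM3a has 2 libraries, and the library left out was picked for its low member values. The members with the lowest adjusted p with all libraries, 0.119, included Uqcrh (-0.27), Uqcr10 (-0.35), Cox4i1 (-0.25), Atp5b (-0.13) and Ndufb9 (-0.24). Uqcr10 was at 1064, 1155 and 861 TPM in MC38-LM3a and at 814, 791 and 797 in MC38-LM3b.

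Against MC38-P, members whose libraries did not overlap were counted as well. In MC38-LM3a 14 members were above MC38-P in every library (background 20.3%) and 5 below (background 15.9%). In MC38-LM3b 12 were above (background 51.3%) and 18 below (background 15.4%), 5 of them in complex V and 7 in complex I. Replicates were closest in MC38-LM3b, where the median coefficient of variation of the members was 3.28%, against 6.76% in MC38-P and 9.31% in MC38-LM3a. All tested genes had the same order, with 3.84%, 11.8% and 13.0%.

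**Figure D5:**
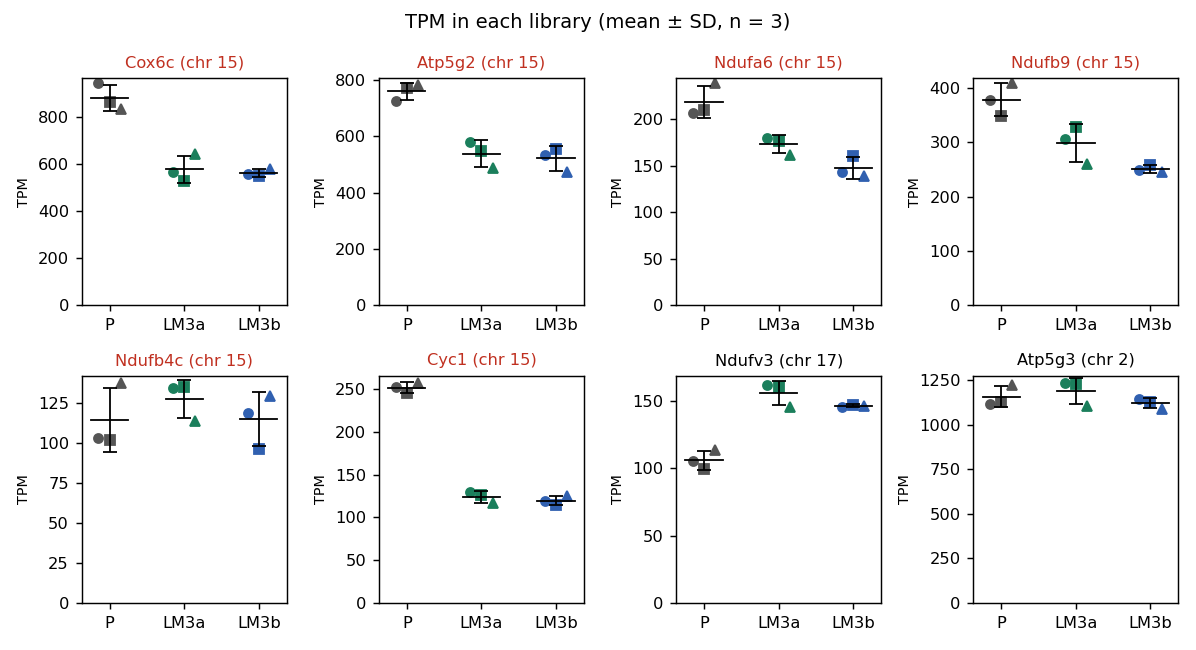
TPM of 8 genes in each library (circle, square and triangle for replicates 1, 2 and 3, bars for mean ± SD, n = 3), with chromosome 15 genes titled in red. Cox6c, Atp5g2, Ndufa6, Ndufb9 and Cyc1 are lower in every derivative library than in MC38-P, Ndufv3 is higher in every one, and Ndufb4c and Atp5g3 overlap between lines.

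Genes that serve the same chain were taken from lists outside the rule, and their counts stand beside a background of 14.1% of all tested genes higher and 13.8% lower in MC38-LM3a and of 35.6% and 11.2% in MC38-LM3b. Of 12 tested further subunits and electron carriers, 2 were higher and 2 lower in MC38-LM3a, and 3 were higher and 3 lower in MC38-LM3b. The higher counts include Ndufa4l2 in both. Dmac2l, a factor associated with complex V and named after its values were seen, was higher in both (0.86 and 0.99). Cyc1, the cytochrome c1 heme subunit of complex III, lies on chromosome 15. It was at 252, 245 and 258 TPM in MC38-P, at 129, 126 and 116 in MC38-LM3a and at 119, 114 and 124 in MC38-LM3b, with log2 fold changes of -1.02 ± 0.06 (adjusted p = 1.74e-06) and -1.07 ± 0.06 (adjusted p = 9.28e-07). It was the only subunit of complex III considered here past the fold limit. Cycs, the soluble cytochrome c that carries electrons onward, named after its values were seen, was also lower in both, at 127, 128 and 135 TPM in MC38-P, at 107, 108 and 94.4 in MC38-LM3a and at 105, 108 and 105 in MC38-LM3b (-0.33 and -0.29, adjusted p = 0.00464 and 0.00614, limma), and lies on chromosome 6.

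Ndufa4l2, a paralog of Ndufa4 induced by hypoxia in many cells, was near 0 in MC38-P. It was listed at 0, 0.30 and 0.26 TPM in MC38-P, at 5.41, 6.34 and 4.49 in MC38-LM3a and at 3.22, 2.43 and 5.17 in MC38-LM3b. It reached 1 TPM in the derivatives only, and so passed the filter through the groups where it was high, and no test is given for it. A filter of 1 TPM in all 9 libraries leaves it out. Of 11 carriers, 1 was then higher and 2 lower in MC38-LM3a (background 13.8% and 13.2%). In MC38-LM3b 2 were higher and 3 lower (background 36.0% and 10.8%). Its level stayed far under that of Ndufa4 on the same per-length scale. The subunits encoded by mitochondrial DNA were not analysed here.

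Assembly factors, which help build the complexes without staying in them, had 3 higher and 9 lower of 53 tested in MC38-LM3a, and 6 higher and 11 lower in MC38-LM3b. Pet100, a complex IV factor, had the highest mean of both values (0.44, adjusted p = 0.136, and 0.57, adjusted p = 0.0399) at a level of 1.82 to 5.30 TPM, and its MC38-LM3b call was lost with median centring (0.35, adjusted p = 0.187). Pet117 had the lowest (-1.56, adjusted p = 0.244, and -0.47, adjusted p = 0.685), with MC38-LM3a replicates at 0, 4.32 and 29.2 TPM. Lower in both derivatives were 8 factors (background 9.07%), among them the complex IV factors Cox14 (-0.62 and -0.74) and Sco2 (-0.65 and -0.60), both on chromosome 15, and Surf1 (-0.37 and -0.53) on chromosome 2, and higher in both (background 13.3%) were Cox20 (0.43 and 0.57), Ndufaf3 and Cmc1, all named after their values were seen.

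Regulators of respiratory genes had 0 higher and 2 lower of 17 tested in MC38-LM3a (4 at an unadjusted p under 0.05, limma) and 3 higher and 2 lower in MC38-LM3b. Polg2, the accessory subunit of the mitochondrial DNA polymerase, was lower in both (-0.48 and -0.46, adjusted p = 0.00649 and 0.00595), at 5.71 ± 0.433, 3.79 ± 0.210 and 3.89 ± 0.196 TPM. Tfb1m, a methyltransferase of mitochondrial ribosomal RNA, had the highest mean of both values (0.25, adjusted p = 0.339, and 0.52, adjusted p = 0.0351), a call lost with median centring (0.30, adjusted p = 0.140).

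The tricarboxylic acid cycle, which feeds NADH and succinate to the chain, had 0 higher and 6 lower of 18 tested in MC38-LM3a (9 at an unadjusted p under 0.05, limma, background 38.5%), and 2 higher and 6 lower in MC38-LM3b. Idh2, on chromosome 7 and named after its values were seen, was lower in both (-0.46 and -0.48). Suclg2, a subunit of succinyl-CoA ligase, had the highest mean value (0.15, adjusted p = 0.265, and 0.30, adjusted p = 0.0226), a call lost with median centring (0.08, adjusted p = 0.213). With all libraries and no correction, none of these lists had a called gene between the derivatives. At an unadjusted p under 0.05 were 1 to 5 genes of each list (limma, background 38.1%). The GC content and length correction called 1 regulator lower in MC38-LM3b. Without MC38-LM3a replicate 3 and with no correction, 11 of 17 regulators were higher in MC38-LM3b and 1 lower (background 52.2% and 4.24%), and genes of the other lists were called as well. The median log2 fold change of the 12 carriers and further subunits was 0.02 in MC38-LM3a and stood at -0.06 in MC38-LM3b, with -0.05 and -0.07 for assembly factors, -0.14 and 0.01 for regulators and -0.12 and -0.07 for the cycle, beside 0.00 and 0.21 over all tested genes.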

How the data were processed

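Poly(A) RNA of 9 libraries, 3 per line, was sequenced on a DNBSEQ instrument. The authors deposited 1 table per library with a TPM value for each gene, and the submitters' processing notes name HISAT and the GRCm39 build. The program that made the TPM values is not given in the sources used here. The authors used DESeq2 for their differential expression, but no counts were analysed here, so the count tests that had been planned could not be run.

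Values were taken as log2(TPM + 1) for the 11287 of 16399 genes that reached 1 TPM in 3 libraries or more. limma 3.58.1 in R 4.3.3 was fitted with 1 mean per line and an intensity trend over all 9 libraries, and p-values were adjusted by Benjamini-Hochberg over all tested genes, with 0.05 as the limit for a call and an absolute log2 fold change of 1 as the fold limit. Replicates were not blocked. GC content and length were corrected by loess (span 0.3) within each library for 11096 genes (98.3%) with a GENCODE M21 transcript, matched by gene number. The fit was tested on simulated data with noise drawn separately for each gene and library. Shifts shared by many genes of a single library were not covered by it.

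Genes were named by rule: the highest and lowest member of each complex in each derivative, any member past the fold limit, tissue isoforms of complex IV and their common counterparts, core subunits, members on chromosome 15, up to 5 members with the lowest adjusted p between derivatives, members at the filter's edge, and the highest and lowest gene of each list. A gene that the rule picked is not reported here. Further genes were named after their values were seen, or as paralogs or neighbours in function of a named member. The members and lists were chosen with earlier results of these data known. Alternatives covered the pseudocount, the filter, scaling, samples in the fit, the replicate number as a block and leaving out libraries. The marker sums not printed elsewhere were at most 1.9 TPM for endothelium and 0.18 TPM for T cells.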

Additional observations from a re-analysis of the deposited data

Results flagged for a closer look

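Sdhd was picked out because all 3 MC38-LM3a libraries lay above every MC38-P library and all 3 MC38-LM3b libraries lay below. Its log2 difference between MC38-LM3b and MC38-LM3a was -0.17, which did not pass the test (adjusted p = 0.119, limma with Benjamini-Hochberg adjustment), and -0.21 with the GC content and length correction (adjusted p = 0.0991). Without MC38-P replicate 3 and MC38-LM3a replicate 3 it was -0.20 and passed (adjusted p = 4.46e-04), and 3 of 21 fits called it. The way Sdhd was picked already set the sign of this difference. In the fit without these 2 libraries, 60 of 79 members were lower in MC38-LM3b (background 6.78%), so that call was not particular to Sdhd.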

How the results depend on the processing

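Each choice was changed alone unless 2 are named, and the correction without MC38-LM3a replicate 3 and the count without chromosome 15 members were added after seeing the data. Of the values of single named genes under alternatives, 1910 kept their direction and side of the threshold, 125 that passed in neither fit changed direction, 141 newly passed, 81 no longer passed and 5 that passed in 1 of the fits or both changed direction, 4 of them values of Sdhc in MC38-LM3b, at -0.055 with median centring, -0.048 with the GC content and length correction, alone and with the replicate block, and -0.047 with that correction without MC38-LM3a replicate 3. A pseudocount of 0.1, a filter of 1 TPM in all 9 libraries and Ndufa4 counted in complex IV moved no count or median of the main comparisons past the limits used. The cause of the changes below was not tested. The fit without MC38-P replicate 3 and MC38-LM3a replicate 3 left out libraries picked from the members' own values. Called genes of a list are given with the numbers higher and lower in parentheses, and a background is the share of all tested genes called higher and lower in that fit. The precision that read depth gives is unknown, as TPM hold no counts, and count tests were not run.

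With the GC content and length correction, MC38-LM3a had 9 lower members (background 26.5% and 24.9%), medians of 0.050, 0.047, 0.0030, 0.072 and -0.039 in complexes I to V, and 7 called carriers (3 and 4), 8 regulators (1 and 7) and 11 cycle genes (1 and 10). MC38-LM3b had 23 lower members (background 29.4% and 28.6%), medians of -0.054, -0.097, -0.13, -0.087 and -0.11, and 31 assembly factors (4 and 27), 12 regulators (2 and 10) and 14 cycle genes (0 and 14). Between derivatives the complex II median was -0.20 and 1 regulator was lower (background 0.0541% and 0.108%). Without MC38-LM3a replicate 3 as well, MC38-LM3a had 25 higher members (background 27.3% and 25.8%) and 20 assembly factors (5 and 15), 10 regulators (1 and 9) and 10 cycle genes (1 and 9) called. MC38-LM3b had 8 higher and 29 lower members (background 31.7% and 30.8%), a complex II median of -0.10 and 35 assembly factors (6 and 29), 12 regulators (2 and 10) and 14 cycle genes (0 and 14). Between derivatives 1 member was higher and 37 lower (background 9.39% and 11%), the complex II and III medians were -0.24 and -0.25, and 5 carriers (0 and 5), 15 assembly factors (1 and 14), 2 regulators (0 and 2) and 7 cycle genes (0 and 7) were called.

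Without MC38-P replicate 3 and MC38-LM3a replicate 3, MC38-LM3a had 53 higher members (background 18.4% and 45.2%), medians of 0.26, 0.19, 0.17, 0.25 and 0.20 in complexes I to V, and 7 carriers (3 and 4), 25 assembly factors (9 and 16), 12 regulators (0 and 12) and 12 cycle genes (1 and 11) called. MC38-LM3b had 19 higher members (background 46.3% and 19%), a complex III median of -0.037, and 26 assembly factors (10 and 16), 11 regulators (5 and 6) and 14 cycle genes (4 and 10). Between derivatives 2 members were higher and 60 lower (background 65.0% and 6.78%), the complex I and III medians were -0.25 and -0.25, and 7 carriers (4 and 3), 17 assembly factors (9 and 8), 13 regulators (12 and 1) and 9 cycle genes (8 and 1) were called. With median centring, MC38-LM3a had 1 higher member (background 19.8% and 20.1%) and 6 regulators (1 and 5) called, and MC38-LM3b had 0 higher and 19 lower members (background 22.9% and 26.4%), medians of -0.24, -0.19, -0.32, -0.24 and -0.32, and 27 assembly factors (1 and 26) and 10 regulators (1 and 9). Between derivatives the centred medians were -0.38, -0.35, -0.35, -0.36 and -0.36.

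Without a filter, 7 members were higher in MC38-LM3a (background 9.61% and 9.89%) and 6 lower in MC38-LM3b (background 23.6% and 8.42%). With only the libraries of the lines compared, MC38-LM3a had 2 higher members (background 9.24% and 9.70%), 6 assembly factors (1 and 5) and 2 cycle genes (0 and 2) called, and MC38-LM3b 5 higher members (background 42.3% and 12.8%) and 8 regulators (5 and 3). With quantile scaling, 5 regulators (0 and 5) and 10 cycle genes (1 and 9) were called in MC38-LM3a (background 21.5% and 20.5%), 27 assembly factors (1 and 26) and 10 regulators (1 and 9) in MC38-LM3b (background 25.9% and 24.5%), whose complex II median was -0.026, and the medians of complexes I to III between derivatives were -0.24, -0.18 and -0.23. Without chromosome 15 members, 0 were lower in MC38-LM3a (background of genes off it 11.5%) and 7 in MC38-LM3b (9.62%).

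Deviations of same-numbered libraries correlated between -0.66 and -0.17 for MC38-P with MC38-LM3a, and between 0.035 and 0.075 for pairs with MC38-LM3b. Whether equal replicate numbers mark shared handling cannot be told from these values. With the replicate block, MC38-LM3a had 4 higher members (background 9.75% and 9.74%), 6 assembly factors (1 and 5) and 3 cycle genes (0 and 3) called, and MC38-LM3b 1 higher and 4 lower members (background 26.0% and 8.43%), 9 assembly factors (2 and 7) and 5 cycle genes (0 and 5). With the block and the GC content and length correction, MC38-LM3a had 8 lower members (background 24.6% and 23.1%), medians of 0.050, 0.047 and 0.0030 in complexes I to III and 8 regulators (1 and 7) called, and MC38-LM3b 5 higher and 21 lower members (background 27.5% and 26.9%), a complex II median of -0.10, 30 assembly factors (3 and 27) and 12 regulators (2 and 10), with -0.20 for complex II between derivatives.

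Leaving out each library in turn gave 1 to 32 higher and 4 to 5 lower members in MC38-LM3a, 1 to 9 and 4 to 20 in MC38-LM3b, and 0 to 2 and 0 to 50 between derivatives. Over these 9 fits the background was 10.02% to 14.2% higher and 8.57% to 23.2% lower in MC38-LM3a, 24.5% to 45.1% and 8.07% to 13.8% in MC38-LM3b, and 0 to 52.2% and 0 to 4.24% between derivatives, where the highest shares were those without MC38-LM3a replicate 3. Medians of complexes I to V ranged from 0.06 to 0.20, 0.067 to 0.14, 0.04 to 0.14, 0.08 to 0.19 and -0.01 to 0.14 in MC38-LM3a. They ranged from -0.05 to 0.04, 0.02 to 0.04, -0.13 to -0.037, -0.05 to 0.02 and -0.12 to -0.03 in MC38-LM3b, and from -0.25 to -0.12, -0.14 to -0.10, -0.25 to -0.10, -0.20 to -0.10 and -0.22 to -0.08 between derivatives. Called carriers ranged from 4 to 7, 4 to 6 and 0 to 4 in these comparisons, assembly factors from 6 to 21, 8 to 23 and 0 to 10, regulators from 1 to 7, 3 to 8 and 0 to 12, and cycle genes from 2 to 10, 5 to 10 and 0 to 6. By direction, carriers were 2 to 3 higher and 2 to 4 lower, 2 to 3 and 2 to 3, and 0 to 1 and 0 to 3. Assembly factors were 1 to 9 and 5 to 12, 3 to 10 and 5 to 13, and 0 to 5 and 0 to 5. Regulators were 0 and 1 to 7, 2 to 5 and 1 to 3, and 0 to 11 and 0 to 1. Cycle genes were 0 to 1 and 2 to 9, 0 to 3 and 5 to 7, and 0 to 5 and 0 to 1.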
